A study of Mus musculus with 6 samples.

Results

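The genes described here encode the core of the BCL2 family, which sets whether the outer membrane of the mitochondrion stays intact: the survival genes Bcl2, Bcl2l1 and Mcl1, and the death genes Bax, Bak1, Bcl2l11, Bid, Bad, Bbc3 and Pmaip1. They were compared between mouse embryonic stem (ES) cells lacking Satb1 and control ES cells. Probe sets annotated with exactly 1 gene symbol equal to one of these 10 names were used, and the probe set with the highest mean of the 6 arrays would have been kept where a gene had several. In fact 9 of the 10 genes were measured, each by 1 probe set, out of 19938 genes on the array. No probe set of the annotation used here names Bax, so Bax was not analysed here.

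The study has 3 arrays of Satb1-/- cells (clones numbered 1-1, 1-2 and 2-1) and 3 arrays of WT cells, which the labels also call control (replicates 1, 2 and 3). All 6 come from cells that carry a HygroTK reporter, which gives resistance to hygromycin, in the Oct4 locus. The cells of both groups were kept with LIF in medium with 15% serum then cultured with hygromycin over irradiated feeders for 3 days, which leaves cells that express Oct4. The suspension was then left to settle for 10 minutes, and the top 50% was taken for RNA, a step that reduces the feeder cells but may leave some. The labels do not tell how Satb1 was disrupted, or whether clones 1-1 and 1-2 share a parent clone. Nor do they name separate cultures behind the replicates, so p-values reflect only the scatter among these arrays, part of which may be technical.

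BCL2 family proteins act on one another. The pore-forming proteins BAX and BAK, once active, open the outer mitochondrial membrane, cytochrome c leaves, and caspases are switched on. The survival proteins BCL2, BCL-XL (from Bcl2l1) and MCL1 hold these pore formers and their activators in check, and the BH3-only proteins BIM (from Bcl2l11), BID, BAD, PUMA (from Bbc3) and NOXA (from Pmaip1) carry stress signals that tip the balance to death. MCL1 is a short-lived protein, and NOXA binds chiefly to it. SATB1 is a chromatin organiser that binds AT-rich DNA, and in human T cell lines it has been reported to bind the BCL2 gene, which bears on this family in cells without it.

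Values are the authors' log2 expression values, and a difference is Satb1-/- minus WT in log2 units with the moderated standard error (SE) from limma. Satb1 itself read 4.38, 4.47 and 4.57 in Satb1-/- cells, against 5.12, 4.99 and 5.31 in WT cells (difference -0.67, SE 0.12, limma adjusted p = 0.022). The sources used here do not place its probes relative to the disruption, so this drop is no check of the knockout's extent. Over all genes, 279 of 19938 passed an adjusted p of 0.05, a share of 1.4%, with 0.923% higher and 0.476% lower in Satb1-/- cells (184 and 95 genes, or 116 and 30 with each array centred on its median). Groups did not overlap for 15.1% of all genes, and 10.5% of all genes (2089) had an unadjusted limma p under 0.05, the share beside which the unadjusted counts of the lists below stand. Array medians lay between 4.73 and 4.78 in Satb1-/- cells and between 4.69 and 4.85 in WT cells. Pearson's r between arrays was 0.9893 to 0.9906 within Satb1-/-, 0.9755 to 0.9860 within WT and 0.9807 to 0.9868 between the groups. WT arrays were thus less alike than Satb1-/- arrays, with a median SD per gene of 0.158 against 0.106.

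Marker genes of other cells moved in part with the genotype. The 14 measured feeder fibroblast markers averaged 6.96 to 7.18 in Satb1-/- arrays and 6.65 to 7.07 in WT arrays, with 12 of 14 differences above 0 and 0 of 14 passing the limma test (4 of 14 had an unadjusted p under 0.05). Of these 14, 13 were brighter than the median gene in these feeder-depleted samples. The largest feeder difference was that of the surface antigen gene Thy1 (0.62, limma adjusted p = 0.262). The 10 trophectoderm markers averaged 5.33 to 5.47 in Satb1-/- arrays and 5.84 to 6.54 in WT arrays. Of these, 2 fell, the keratin genes Krt8 (-2.72) and Krt18 (-2.48), beside 0.476% of all genes. Both calls were lost with a floor at the 25th percentile of all values (limma adjusted p = 0.172 and 0.222). That floor (3.63) lay below every reading of both genes and left their differences unchanged. A further keratin gene, Krt7 (-1.57, limma adjusted p = 0.0716), lay wholly below WT without passing, while Eomes (0.55, limma adjusted p = 0.068) and Tfap2c (0.33, limma adjusted p = 0.246), which encode transcription factors, lay wholly above WT without passing (6 of the 10 had an unadjusted p under 0.05). The average of this list leans on the keratin genes, which had its largest differences. Of its 10 differences 3 were above 0 and 7 below (median -0.27). Among these 10 genes 2 lay wholly above WT and 3 wholly below, beside 15.1% of all genes whose groups were apart. The highest WT average, 6.54, was that of replicate 3, where Krt8 read 10.09 and Krt18 9.66. None of the 10 primitive endoderm markers passed, the largest difference being that of the growth factor receptor gene Pdgfra (0.53, limma adjusted p = 0.241; 1 of the 10 had an unadjusted p under 0.05). The 12 ES cell markers were all brighter than the median gene of the array, as the label of the cells would have it. They averaged 9.35 to 9.39 in Satb1-/- arrays and 9.13 to 9.37 in WT arrays. Of these 12, 2 rose, Nanog (1.09) and Esrrb (0.56), beside 0.923% of all genes. Nanog lies on chromosome 6, the chromosome of Bid, and what its rise reflects was not tested. The call of Esrrb was lost without WT replicate 1 (limma adjusted p = 0.106) and without clone 1-1, 1-2 or 2-1 (0.19, 0.166 and 0.209), as well as with clones 1-1 and 1-2 averaged (0.171), centred arrays (0.0878) and the floor (0.157), under which Nanog missed the threshold too (0.059). Of the 12 differences 6 were above 0 and 6 below, and 6 of the 12 genes had an unadjusted p under 0.05. Among these 12 genes 3 lay wholly above WT and 4 wholly below, beside the same 15.1% of all genes. Pou5f1, which encodes Oct4 and holds the reporter (-0.39, limma adjusted p = 0.309), Dppa4 (-0.39, limma adjusted p = 0.234) and Lin28a (-0.34, limma adjusted p = 0.361) were lower in every Satb1-/- array without passing, as was Tdgf1 (-0.06), while Sox2 (0.30, limma adjusted p = 0.316) was higher in every one without passing. The part of such cells in the values below was not tested, and in these bulk samples fewer cells of a type and less RNA per cell cannot be told apart.

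Bid rose in Satb1-/- cells, and it was the 1 member of the 9 measured that passed the test, beside 0.923% of all genes called higher. Its call was lost under 10 of the 15 alternative settings, while its difference stayed above 0. Of 12 other measured family genes, 2 also rose, Bcl2l13 and Bcl2l14. All 3 lie on chromosome 6, where Bcl2l13 is the measured gene directly beside Bid and Bcl2l14 lies 191 measured genes from Bid. The 250 bases before the first annotated start of each of these 3 genes are shown here (RefSeq, GRCm38.p6; 5′ to 3′ on the strand of the gene), with GC boxes, the letters GGGCGG or their reverse complement CCGCCC, in capitals. The Bid window is chr6:120916825-120917074 on the minus strand, the Bcl2l13 window chr6:120835980-120836229 on the plus strand and the Bcl2l14 window chr6:134396079-134396328 on the plus strand.
Bid: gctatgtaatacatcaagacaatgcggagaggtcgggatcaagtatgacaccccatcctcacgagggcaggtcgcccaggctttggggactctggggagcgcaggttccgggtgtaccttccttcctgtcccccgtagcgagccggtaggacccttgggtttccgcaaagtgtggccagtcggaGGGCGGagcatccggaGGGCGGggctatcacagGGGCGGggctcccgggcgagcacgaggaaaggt
Bcl2l13: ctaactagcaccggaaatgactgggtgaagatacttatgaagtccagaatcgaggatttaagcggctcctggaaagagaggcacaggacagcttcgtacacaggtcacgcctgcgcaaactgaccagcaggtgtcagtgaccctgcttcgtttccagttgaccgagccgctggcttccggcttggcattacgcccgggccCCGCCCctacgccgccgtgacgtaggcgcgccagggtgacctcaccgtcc
Bcl2l14: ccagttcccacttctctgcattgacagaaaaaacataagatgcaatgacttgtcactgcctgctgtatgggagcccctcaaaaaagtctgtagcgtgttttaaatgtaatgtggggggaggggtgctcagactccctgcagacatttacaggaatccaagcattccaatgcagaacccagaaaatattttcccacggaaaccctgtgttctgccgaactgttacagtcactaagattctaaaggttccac

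The Bid window holds 3 GC boxes, the Bcl2l13 window 1 and the Bcl2l14 window 0, against 32.7% of 32851 windows of this length that hold at least 1. AT content was 36.4% before Bid, 40.0% before Bcl2l13 and 54.4% before Bcl2l14, with a median of 47.6% over all windows. Among the 10 BCL2 family members, 9 were matched to 15 windows, and Pmaip1 was left out of this search. A GC box was found in 10 of these 15 windows, beside 32.7% of all windows, though windows 2 and 3 of Bbc3 overlap. It was found before 7 of these 9 genes, with none in the single window of Bak1 or in any of the 3 windows of Bcl2l1. The count of genes takes any window of a gene, so the share of windows is no background for it. The letters ATATAT, an AT-rich word of the kind that SATB1 binding sites hold, were found in 0 of the 15 windows and in 5.0% of all windows, and the TATA box TATAAA, searched with its reverse complement TTTATA, in 0 of the 15 and in 12.4% of all. The search covered both strands, and such matches are letters in a window, with no measurement of binding in these data.

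The survival genes did not pass the test in either direction (0 of 3; 1 of 3 had an unadjusted p under 0.05 by limma, beside 10.5% of all genes). Bcl2, the founding survival gene of the family, read 4.05, 4.37 and 4.18 in Satb1-/- cells, against 4.26, 4.23 and 4.16 in WT cells. The WT values lay inside the range of the Satb1-/- values, and the probe set was dim, at percentile 32.9 of all genes. The difference was -0.01 (SE 0.11), with a 95% interval of -0.27 to 0.24 (limma adjusted p = 0.989), which does not show that the level was equal.

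Bcl2l1, whose main product BCL-XL guards the mitochondrion, read 6.63, 6.29 and 6.50 in Satb1-/- cells, against 6.15, 6.27 and 6.65 in WT cells. The Satb1-/- values lay inside the WT range, whose highest array was replicate 3. The difference was 0.12 (SE 0.15), with a 95% interval of -0.21 to 0.44 (limma adjusted p = 0.894).

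Mcl1 was the survival gene with the largest difference, and it did not pass. It read 9.98, 10.03 and 10.07 in Satb1-/- cells, against 10.27, 10.40 and 10.43 in WT cells. Every Satb1-/- array lay below every WT array, as the groups were apart for 15.1% of all genes. The mean was 10.03 ± 0.05 in Satb1-/- cells and 10.37 ± 0.08 in WT cells (SD, n = 3 each). The difference was -0.34 (SE 0.10, 95% interval -0.56 to -0.11), a fold of 0.791, with an unadjusted p of 0.00722 and a limma adjusted p of 0.185. The exact permutation test over the 6 arrays gave p = 0.1 (two-sided), the smallest that 3 against 3 arrays allow. Mcl1 was among the brightest genes of the array, at percentile 99.1.

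Among the death genes 1 of 6 measured members rose and 0 of 6 fell (limma), against 0.923% and 0.476% of all genes. Of the 6, 2 had an unadjusted p under 0.05, beside 10.5% of all genes. The median difference of the 6 was -0.03, and that of the 3 survival genes -0.01, beside -0.00 over all genes.

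Bak1, the 1 measured pore former, read 6.06, 5.57 and 6.09 in Satb1-/- cells, against 6.11, 5.99 and 6.18 in WT cells. Clone 1-2 alone stood low, and the other clones lay within the WT range. The difference was -0.19 (SE 0.15), with a 95% interval of -0.51 to 0.13 (limma adjusted p = 0.772). Without clone 1-2 it was -0.02.

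Bid, whose protein caspase 8 cleaves so that a death receptor signal reaches the mitochondrion, read 6.98, 7.08 and 6.98 in Satb1-/- cells, against 6.36, 6.50 and 6.61 in WT cells. All 3 Satb1-/- arrays lay above all 3 WT arrays, and the closest arrays of the groups were 6.98 and 6.61. The mean was 7.01 ± 0.06 in Satb1-/- cells and 6.49 ± 0.13 in WT cells (SD, n = 3 each). The difference was 0.52 (SE 0.11, 95% interval 0.28 to 0.76), a fold of 1.43 (limma adjusted p = 0.0483), and the exact permutation test gave p = 0.1 (two-sided), the smallest it can give. The direction held whichever array was left out, with differences between 0.45 and 0.58. The call did not: the limma adjusted p was 0.113 without WT replicate 1, 0.0933 without WT replicate 2, 0.175 without clone 1-1, 0.226 without clone 1-2 and 0.206 without clone 2-1, and it passed without WT replicate 3 (0.0216).

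Pmaip1, the NOXA gene and a known p53 target, was lower in every Satb1-/- array but did not pass. It read 6.65, 6.62 and 6.70 in Satb1-/- cells, against 7.06, 7.12 and 6.90 in WT cells. The mean was 6.66 ± 0.04 in Satb1-/- cells and 7.03 ± 0.11 in WT cells (SD, n = 3 each). The groups did not overlap, and the difference of -0.37 (SE 0.11, 95% interval -0.60 to -0.14) was a fold of 0.774. Its unadjusted p was 0.00525 and its limma adjusted p 0.157, with p = 0.1 in the exact permutation test (two-sided). Of the 9 measured members, 1 lay wholly above and 2 wholly below WT, beside 15.1% of all genes whose groups were apart in either direction. Only these 3 had an unadjusted p under 0.05, beside 10.5% of all genes.

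The remaining BH3-only genes had differences within 0.05 of 0. Bcl2l11, which encodes BIM, an activator of BAX and BAK, read 6.40, 6.62 and 6.51 in Satb1-/- cells, against 6.55, 6.40 and 6.55 in WT cells (difference 0.01, 95% interval -0.23 to 0.25). Bad, whose protein AKT signalling keeps inactive, read 5.44, 5.37 and 5.39 in Satb1-/- cells, against 5.50, 5.31 and 5.45 in WT cells (difference -0.02, 95% interval -0.25 to 0.21). Bbc3, the PUMA gene and another p53 target, read 4.80, 4.94 and 4.48 in Satb1-/- cells, against 4.91, 4.74 and 4.72 in WT cells (difference -0.05, 95% interval -0.35 to 0.25). The groups overlapped for each of these genes, with limma adjusted p-values of 0.994, 0.983 and 0.962. These intervals leave room for differences in either direction.

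**Figure D1:**
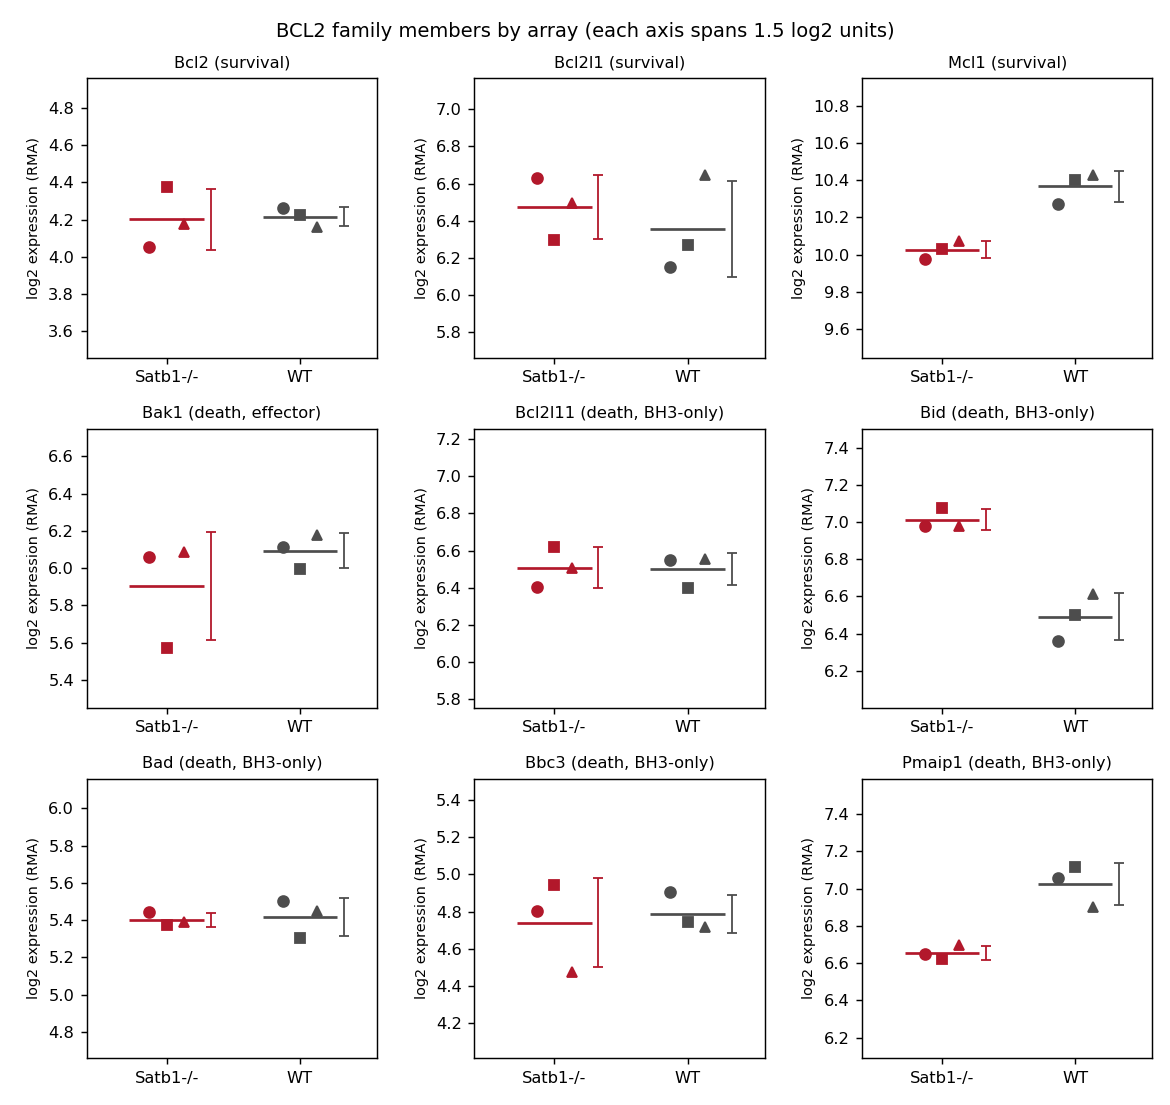
Log2 expression of the 9 measured BCL2 family members in each array. Circle, square and triangle are clones 1-1, 1-2 and 2-1 in the Satb1-/- group and replicates 1, 2 and 3 in the WT group; horizontal lines are means and error bars SD (n = 3). The Satb1-/- arrays lie wholly above WT for Bid (6.98 to 7.08 against 6.36 to 6.61) and wholly below WT for Mcl1 and Pmaip1, and the groups overlap in the other panels.

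Set against the WT mean of each gene, the 3 survival genes averaged between -0.09 and -0.06 in the Satb1-/- arrays and between -0.08 and 0.10 in the WT arrays. The 6 death genes averaged between -0.03 and 0.00 in the Satb1-/- arrays and between -0.04 and 0.03 in the WT arrays. Neither class separated the groups.

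The wider family was read from a list of 16 further genes, of which 12 were measured, 2 rose and 0 fell (limma; 2 of 12 had an unadjusted p under 0.05), against 0.923% and 0.476% of all genes. Bcl2l13, which encodes BCL-Rambo, a mitochondrial protein with a part in mitophagy, read 7.66, 7.67 and 7.79 in Satb1-/- cells, against 6.43, 6.84 and 6.81 in WT cells. Its difference was 1.02 (SE 0.13, limma adjusted p = 0.00335), a fold of 2.02. Bcl2l14, which encodes BCL-G, read 5.79, 5.85 and 5.88 in Satb1-/- cells, against 4.86, 4.95 and 4.68 in WT cells. Its difference was 1.01 (SE 0.11, limma adjusted p = 0.00142), a fold of 2.01. For both genes the arrays of the groups lay far apart, and the calls held with any 1 array left out, with adjusted p-values from 0.00161 to 0.0351 for Bcl2l13 and from 0.001 to 0.0181 for Bcl2l14. Both calls were lost with the floor (limma adjusted p = 0.119 for Bcl2l13 and 0.059 for Bcl2l14), which left both differences unchanged.

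The other 10 measured genes of that list did not pass, and their median with these 2 was -0.01. They hold the survival genes Bcl2l2 (0.07) and Bcl2l10 (0.02), the BAX-like Bok (-0.09), and the BH3-only genes Bmf (-0.13), Bik (-0.21) and Hrk (-0.04). The hypoxia-induced mitophagy gene Bnip3 differed by 0.43 with a wide 95% interval of -0.13 to 0.99. Its WT values ran between 8.14 and 9.40 and enclosed all 3 Satb1-/- values (9.02, 9.28 and 9.23).

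**Figure D2:**
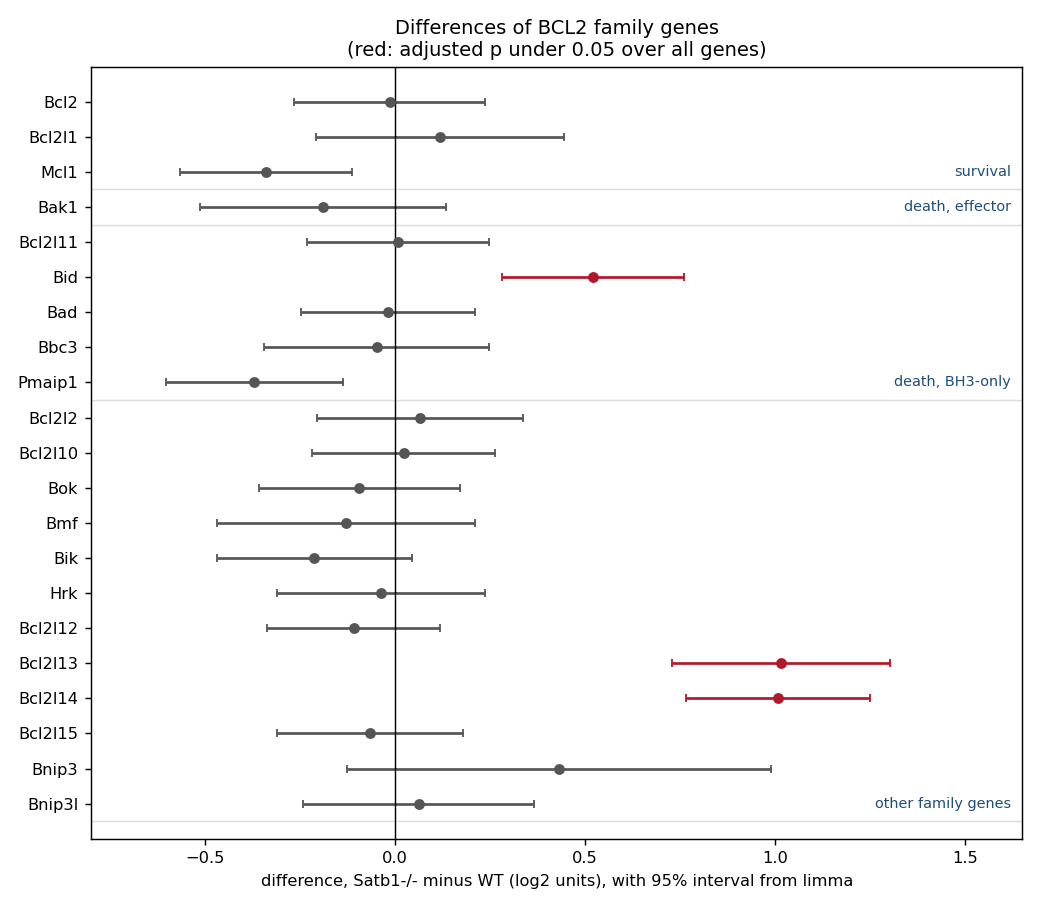
Differences of the 9 measured members and 12 further BCL2 family genes, Satb1-/- minus WT in log2 units. Points are limma estimates, bars 95% intervals, and red marks an adjusted p under 0.05 over all genes: Bid (0.52), Bcl2l13 (1.02) and Bcl2l14 (1.01). Intervals of Mcl1 and Pmaip1 lie below 0 without passing that adjustment.

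Bid and its family neighbours were then set beside the genes around them. Of the 20 measured genes nearest to Bid, 10 on each side, 16 had a difference above 0, 10 rose and 0 fell, and the median was 0.61. Over all genes, 9679 of 19938 had a difference above 0, 0.923% rose and 0.476% fell. The difference of Bid, 0.52, lay below that of 10 of these 20 genes and above that of the other 10. Of the 11 neighbours brighter than the median gene of the array, 10 had a larger difference than Bid, and their median was 1.02. The neighbours ranged from the tubulin gene Tuba8 (-0.20) to A2m (2.89), a protease inhibitor gene. Of the 10 neighbours that rose, 8 lie before Bid and 2 after it, Mical3 directly beside Bid and A2m further on.

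Bcl2l13 has nearly the same neighbours as Bid, of which 10 of 20 rose. Around Bcl2l14, 8 of 20 rose (1 before it and 7 after it), 0 fell and 19 of 20 differences were above 0 (median 0.53). The shares over all genes are those given beside the neighbours of Bid. Its highest neighbour was Lrp6 (1.60), a Wnt co-receptor gene, which lies next to it. The other 8 measured members had surroundings with 0 called genes in either direction, and the medians of their 20 neighbours lay between -0.10 and 0.01. Mcl1, on chromosome 3, lay below all 20 of its neighbours, whose median was -0.07 and whose lowest was the splicing factor gene Prpf3 (-0.26). Bcl2l1, with a difference of only 0.12 that did not pass, likewise lay above all 20 of its neighbours. Pmaip1 lay below 18 of its 20 neighbours, whose median was -0.10.

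**Figure D3:**
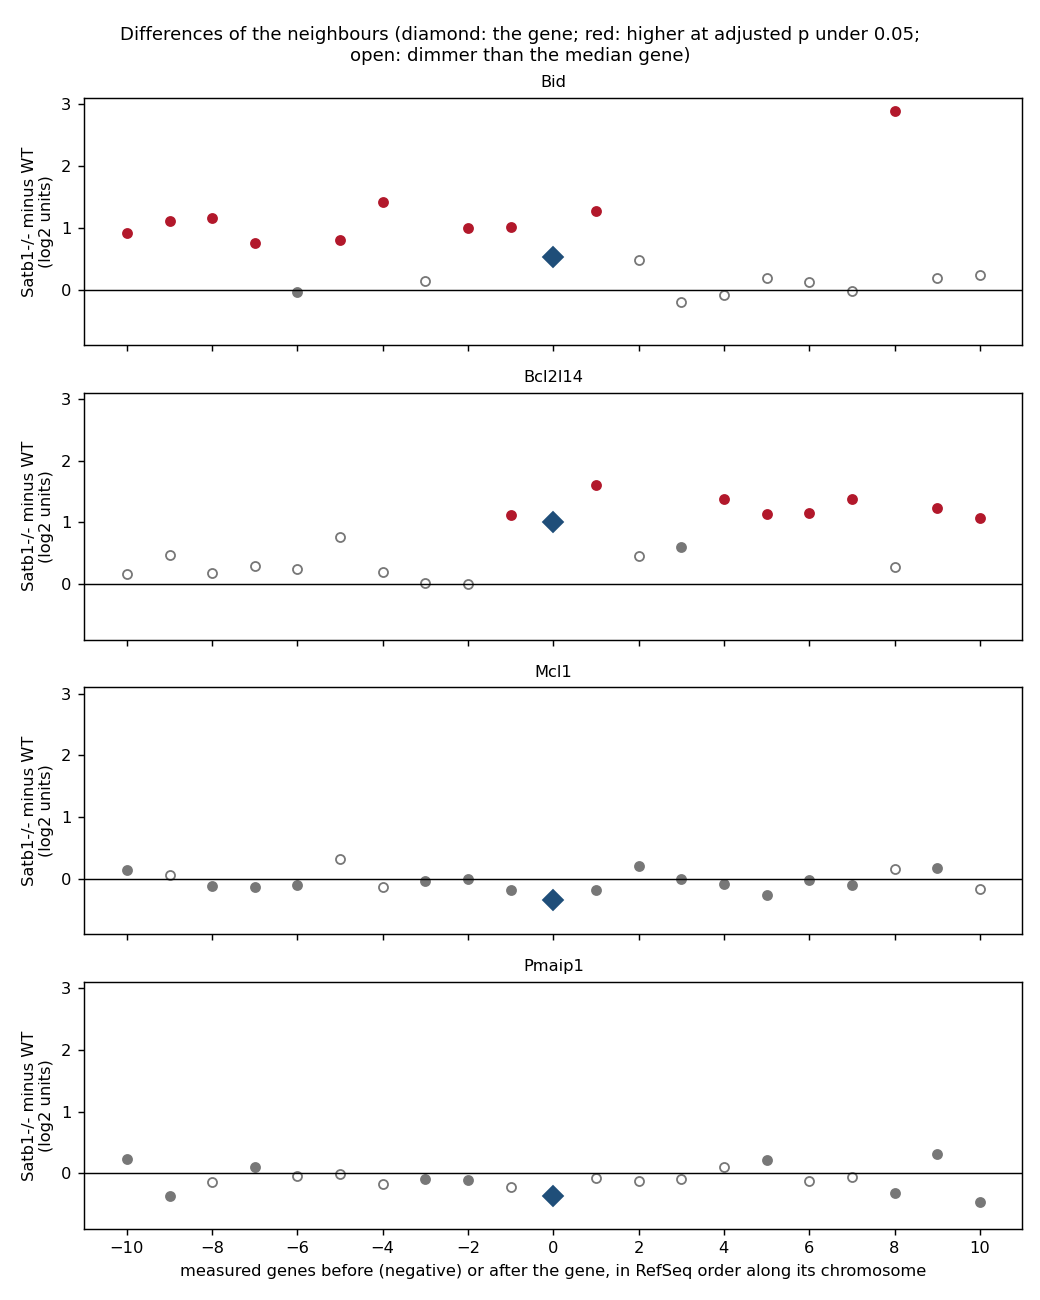
Differences (Satb1-/- minus WT, log2 units) of the 10 measured genes on each side of Bid, Bcl2l14, Mcl1 and Pmaip1, in gene order. The diamond is the named gene, red circles rose at an adjusted p under 0.05, and open circles are dimmer than the median gene. Of the 20 neighbours, 10 rose around Bid (8 before it and 2 after it), 8 around Bcl2l14 (1 before it and 7 after it) and 0 around Mcl1 or Pmaip1. Over all genes 0.923% rose.

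Over the 6 arrays the genes whose values ran most nearly parallel to those of Bid were Tbx3, a T-box factor gene (Pearson's r = 0.9995, difference 1.59), Ndufa9, a gene of respiratory complex I (r = 0.9969, difference 1.05), and Sparc, a matrix protein gene (r = 0.9964, difference 0.63). Ndufa9 lies on chromosome 6 as Bid does, Tbx3 on chromosome 5 and Sparc on chromosome 11. With 6 arrays in 2 groups, such values mainly reflect the difference between the groups, and they were picked as the highest of all genes.

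Beyond the family, the steps after the mitochondrion were read from 15 genes of mitochondrial death factors, the apoptosome and caspases. Of 13 measured, 1 rose and 0 fell (limma; 3 of 13 had an unadjusted p under 0.05), against 0.923% and 0.476% of all genes. The riser was Vdac1, which encodes a channel of the outer mitochondrial membrane and read 10.25, 10.37 and 10.27 in Satb1-/- cells, against 9.29, 9.57 and 9.40 in WT cells (difference 0.87, SE 0.11, limma adjusted p = 0.00335, or 0.0843 with the floor). It lies on chromosome 11 among 20 neighbours of which 6 rose and 19 were above 0 (median 0.46), and it stood above all 20. The cytochrome c gene Cycs (-0.03), Apaf1 of the apoptosome (0.01) and its partner Casp9 (-0.01) differed little, and the caspase gene Casp6 (0.44) and the apoptosis-inducing factor gene Aifm1 (0.43) did not pass (limma adjusted p = 0.35 and 0.196).

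In the other 4 lists 0 genes passed (limma). Of 6 measured inhibitor of apoptosis genes, 0 had an unadjusted p under 0.05 and the largest difference was that of Birc3 (-0.19). Of 11 death receptor and adaptor genes, which act upstream of Bid, 2 had an unadjusted p under 0.05. They were the tumour necrosis factor receptor gene Tnfrsf1a (0.38, limma adjusted p = 0.117) and Cflar (0.27, limma adjusted p = 0.425), whose protein blocks caspase 8, while Casp8 itself differed by 0.02. Tnfrsf1a also lies on chromosome 6, and 4 of its 20 neighbours rose, beside 0.923% of all genes, a value looked up after its difference was seen.

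Of 15 measured genes of the p53 list, which bear on Bbc3 and Pmaip1 as p53 targets, 3 had an unadjusted p under 0.05, beside 10.5% of all genes. The p53 gene Trp53 itself and the listed targets Cdkn1a and Gdf15 had no probe set of their own and were not measured. The antiproliferative gene Btg2 (-0.48, limma adjusted p = 0.121) and the nuclease gene Aen (-0.43, limma adjusted p = 0.251) were lower in every Satb1-/- array. Thus 2 of the 15 lay wholly below WT and 0 wholly above, beside 15.1% of all genes whose groups were apart. The stress gene Sesn1 (0.48, limma adjusted p = 0.336) was higher without a gap between the groups. The p53 ligase gene Mdm2 differed by 0.01, with a 95% interval of -0.23 to 0.25. Of 21 measured regulators of the family, 3 had an unadjusted p under 0.05, against that same share of all genes, and the largest difference was that of the stress factor gene Atf4 (-0.38, limma adjusted p = 0.29).

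Across the members and these 6 lists, 87 of 100 listed genes were measured, 4 rose and 0 fell (limma; 16 of 87 had an unadjusted p under 0.05), against 0.923% and 0.476% of all genes. Their median difference was 0.01, beside -0.00 over all genes. The 4 were Bid, Bcl2l13, Bcl2l14 and Vdac1, and each of them lay among neighbours of which at least 6 of 20 rose, beside 0.923% of all genes. Bid and Bcl2l13 share nearly all of these neighbours. Outside the members, the surroundings of genes that did not pass were read only for Tnfrsf1a.

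**Figure D4:**
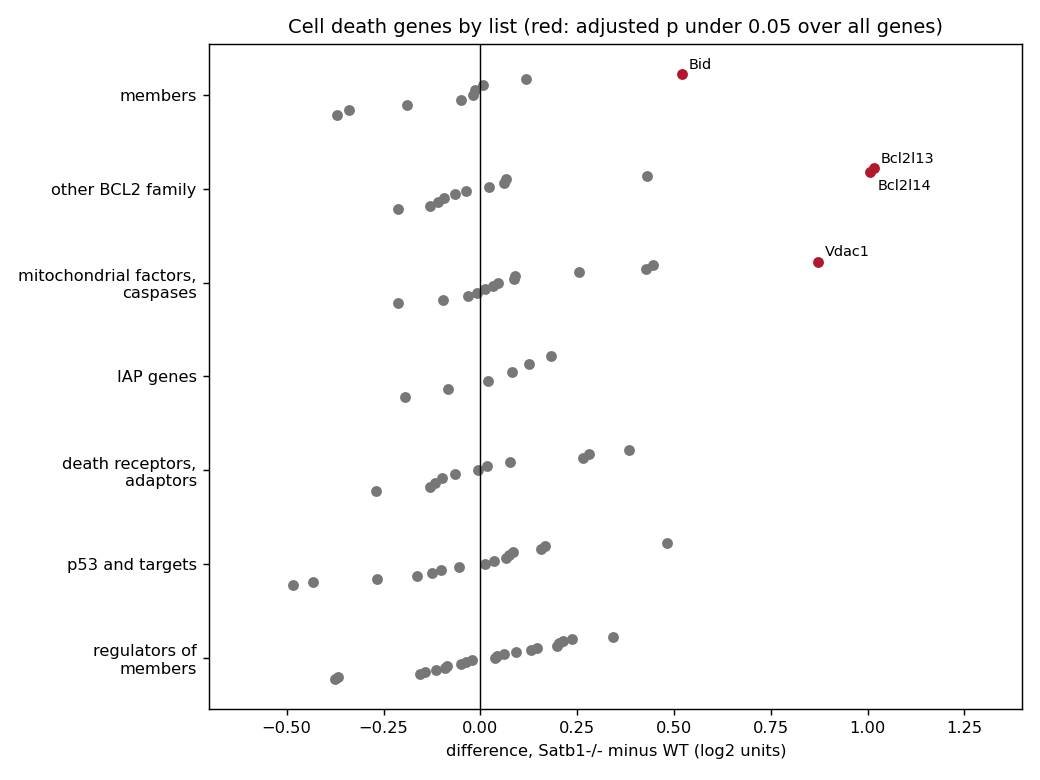
Differences (Satb1-/- minus WT, log2 units) of every measured gene of the members and of 6 further cell death lists, 1 point a gene, spread vertically within a list for legibility. Red points passed an adjusted p of 0.05 over all genes, and they are Bid, Bcl2l13, Bcl2l14 and Vdac1; 83 of the 87 genes did not pass.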

How the data were processed

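RNA of 6 ES cell samples, 3 Satb1-/- and 3 WT, was labelled with biotin and hybridised to 1-colour arrays. The deposited log2 values, 1 per probe set and array, were made by the authors with RMA, per the submitters' processing notes, without a stated version or settings. RMA compresses differences of dim genes, so a log2 difference understates them. The table held 35557 probe sets without a missing value. Arrays have no read depth, and their number limits the precision.

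Of these probe sets, 21789 had exactly 1 gene symbol in the platform annotation, 1621 several and 12147 none; the brightest probe set of each gene was kept (19938 genes). limma 3.58.1 (R 4.3.3; lmFit, eBayes, no covariate, no filter) compared the groups, with Benjamini-Hochberg adjustment over all 19938 genes, and was tested on simulated data. Neighbours came from RefSeq gene order (GRCm38.p6), in which 19856 genes were placed by Entrez ID. The sources used here name no build for the array.

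The members, the 10 further lists and the rule for named genes (all members, called and largest genes of each list, Satb1, extreme neighbours, the 3 genes most like the member with the smallest p) were chosen with earlier results of these data known. Of the 16 further family genes, Bcl2a1a, Bcl2a1b, Bcl2a1d and Moap1 had only probe sets shared with other symbols and were not used. Alternatives were each array left out, clones 1-1 and 1-2 averaged, array weights, other scalings, dim-gene filters, probe set choices and another variance model.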

Additional observations from a re-analysis of the deposited data

How the results depend on the processing

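Bid kept a positive difference under all 15 alternatives (0.45 to 0.58) and passed the test under 5 of them (adjusted p 0.0143 to 0.226 over all 15). The count of members higher was 1 with all arrays and 0 or 1 with 1 array left out. It was 0 with clones 1-1 and 1-2 averaged, with each array centred, with a floor at the 25th percentile, over all probe sets, and with eBayes set to trend and robust. The count of members lower was 0 with all arrays and with any 1 left out, and 1 with array weights, where Pmaip1 passed (-0.41, adjusted p = 0.0433). Mcl1 stayed negative and not called under all 15 (-0.39 to -0.26, adjusted p 0.076 to 0.518).

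Differences near 0 changed sign. Bcl2 turned to 0.00528 with a second quantile normalization and to 0.00405 with centred arrays, Bad to 0.0363 with array weights and to 0.000538 with centred arrays, and Bcl2l11 to -0.0200 with a second quantile normalization. With 1 array left out, Bcl2 lay between -0.101 and 0.0593 (0.00823 without WT replicate 1, 0.0593 without clone 1-1), Bad between -0.0752 and 0.0243 (0.0243 without WT replicate 1), Bcl2l11 between -0.0475 and 0.0606 (-0.0432 without WT replicate 2, -0.0475 without clone 1-2) and Bbc3 between -0.15 and 0.0827 (0.00999 without WT replicate 1, 0.0827 without clone 2-1). None of these passed in any setting. Bcl2 and Bbc3 gave no value among genes brighter than the median gene, since both are dimmer.

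Over all genes, 184 were higher and 95 lower. The counts were 90 and 27 with clones 1-1 and 1-2 averaged, 373 and 235 with array weights, 236 and 148 with a second quantile normalization, 116 and 30 with centred arrays, 18 and 4 with the floor, which left 2967 genes with no spread and under which Bcl2l13, Bcl2l14, Vdac1, Krt8, Krt18, Nanog and Esrrb also missed the threshold (adjusted p 0.059 to 0.222), and 68 and 15 over all probe sets. With 1 array removed, between 74 and 356 genes were higher and between 19 and 124 were lower, the most (356) without WT replicate 3. The causes of these shifts were not tested. The genes named as missing the threshold under the floor read above it (3.63) in every array, so their differences did not change. Their calls were thus lost without a change in their own values. Labels give the groups no shared replicate numbers, so no replicate block was fitted. Signal over background was not measured here, and dim probe sets such as those of Bcl2 and Bbc3 limit what could be seen.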
